A study of Mus musculus with 5 samples.

Results

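The genes described here are 10 bone and cartilage genes of the mouse, of 24563 genes with a named probe on the arrays. They were found by symbol in the deposited gene table and among the scanner probes, where they hold 14 probes. Of the 10, 7 mark osteoblasts, the cells that lay down bone (Bglap, Ibsp, Sp7, Runx2, Dmp1, Phex and Alpl), and 3 mark cartilage (Col2a1, Acan and Comp). They were chosen with their levels on these arrays known, so their levels and differences are a description and carry no test.

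The study measured RNA of C57BL/6 mouse tissue on 5 one-colour microarrays, 1 for each of 5 groups. The groups were tissue recovered 4 weeks after a kidney bud was transplanted, tissue recovered 2 weeks after it, and normal kidney of E13.5 embryos, of newborns (P0) and of adults of 8 weeks. The series sets developmental genes in the transplants beside the kidneys. The sources used here do not say which cells made up the bud, which host received it or where it was placed. No group has a replicate, so no difference can be set against a spread between animals. In such bulk tissue, fewer cells of a type and less RNA per cell cannot be told apart.

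Bone is made by osteoblasts, which arise from mesenchymal cells under the transcription factors Runx2 and, after it, Sp7. They secrete a collagen matrix with acidic proteins such as bone sialoprotein and osteocalcin, and some are then buried in it as osteocytes. Cartilage cells instead secrete type II collagen and aggrecan. Neither tissue is part of a normal kidney, although single genes of both programmes, such as Alpl in the proximal tubule, are known to be active there.

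The windows upstream of 3 osteoblast genes are shown because Runx2 is known to bind the core ACCACA, which reads TGTGGT on the other strand, and because Bglap and Ibsp stood highest above the kidneys among the osteoblast genes. The RefSeq promoter table, build GRCm38.p6, held a window of 250 bases before to 50 bases after the annotated start for 7 of the 10 genes. The core is in capitals.
Bglap (chr3:88384417-88384716, minus strand): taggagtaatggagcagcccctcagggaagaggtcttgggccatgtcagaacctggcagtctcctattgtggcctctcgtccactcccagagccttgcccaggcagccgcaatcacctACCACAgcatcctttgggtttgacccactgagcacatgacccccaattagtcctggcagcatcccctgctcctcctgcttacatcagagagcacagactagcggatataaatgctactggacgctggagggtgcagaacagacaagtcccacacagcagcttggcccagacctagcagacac
Ibsp (chr5:104299037-104299336, plus strand): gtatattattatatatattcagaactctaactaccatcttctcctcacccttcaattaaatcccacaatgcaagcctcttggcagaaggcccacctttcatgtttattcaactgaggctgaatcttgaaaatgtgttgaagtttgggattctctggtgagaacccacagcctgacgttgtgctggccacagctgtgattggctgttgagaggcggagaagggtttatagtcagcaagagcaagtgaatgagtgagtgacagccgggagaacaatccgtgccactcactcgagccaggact
Runx2 (chr17:44814578-44814877, minus strand): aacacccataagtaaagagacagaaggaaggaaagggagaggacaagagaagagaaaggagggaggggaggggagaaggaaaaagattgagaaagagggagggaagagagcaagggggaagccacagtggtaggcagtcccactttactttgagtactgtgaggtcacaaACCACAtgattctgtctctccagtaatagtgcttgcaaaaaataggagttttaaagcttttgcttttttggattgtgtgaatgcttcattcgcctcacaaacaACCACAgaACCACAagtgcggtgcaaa
In the Bglap window the core begins 132 bases before the start and a TATAAA box 27 bases before it. The Ibsp window holds TTTATA, the same box on the other strand, 28 bases before the start, and no core. The Runx2 window holds the core 3 times, 80 bases before the start and from positions 24 and 32 after it. Of the 7 genes with a window, 3 held the core, the third being the second of the windows of Dmp1, 164 bases before the start. Of all 32851 windows, 16.8% held it. With only the first listed window of each gene, 16.9% of 27025 genes held it, among them Bglap and Runx2 but not Dmp1. The count of 3 took any window of a gene, for which no share over all genes was computed. These matches are letters only and say nothing about binding in these tissues.

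Each value below is the scanner's processed signal, which has the local background subtracted. A level is its log2 relative to the 75th percentile of the array's signals (1503.9, 1713.4, 1619.7, 1720.1 and 1170.2 for the 4-week and 2-week transplant, then E13.5, P0 and 8-week kidney). A probe counts as measured where the scanner marked it well above background, which held for 60.9% to 69.1% of gene spots per array. Where only 1 of 2 arrays measured a gene, the dim side entered at its own level or at that array's lowest measured level, whichever was higher, and the difference is a bound ("at least"). Pairs measured on neither array were not compared. A gene is called here at a 4-fold difference. Spots repeated on an array scattered with an SD of 0.0579 to 0.0748 log2 units (the median over 399 probes), an error of the spots alone. The 2-week transplant shared slide 1 with the E13.5 kidney, and the other 3 arrays were on slide 2.

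The kidney labels were set against 8 proximal tubule genes. Their summed signal, in multiples of the array's 75th percentile, was 5.2 in the 4-week transplant and 11.8 in the 2-week transplant, against 0.4, 115 and 1370 in the E13.5, P0 and 8-week kidney. All 8 were at least 4-fold lower in both transplants than in the 8-week kidney. That held for 7.8% (4 weeks) and 8.67% (2 weeks) of all genes compared. The 6 adipocyte genes summed to 432 and 153 in the 4-week and 2-week transplant and to 0.0774 to 0.106 in the kidneys. The 9 fibroblast and smooth muscle genes summed to 315 and 423 in the transplants and to 31, 94 and 11.1 in the E13.5, P0 and 8-week kidney. The part of these other tissues in the results below was not tested.

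Among the bone genes, 2 stood far above every kidney in the 2-week transplant and were much lower in the 4-week transplant. Bglap (osteocalcin, a vitamin K-dependent protein of bone matrix) and Ibsp (bone sialoprotein, which binds the mineral) lay at least 53.69-fold above each kidney at 2 weeks, and were 18.08-fold and 13.51-fold lower at 4 weeks than at 2 weeks. Of the transcription factors, Runx2 was close to the P0 kidney in both transplants and Sp7 was barely measurable. Among the cartilage genes Comp was high in both transplants, while Col2a1 was lower in them than in the E13.5 and P0 kidney and dropped out of measurement in the 8-week kidney.

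**Figure D1:**
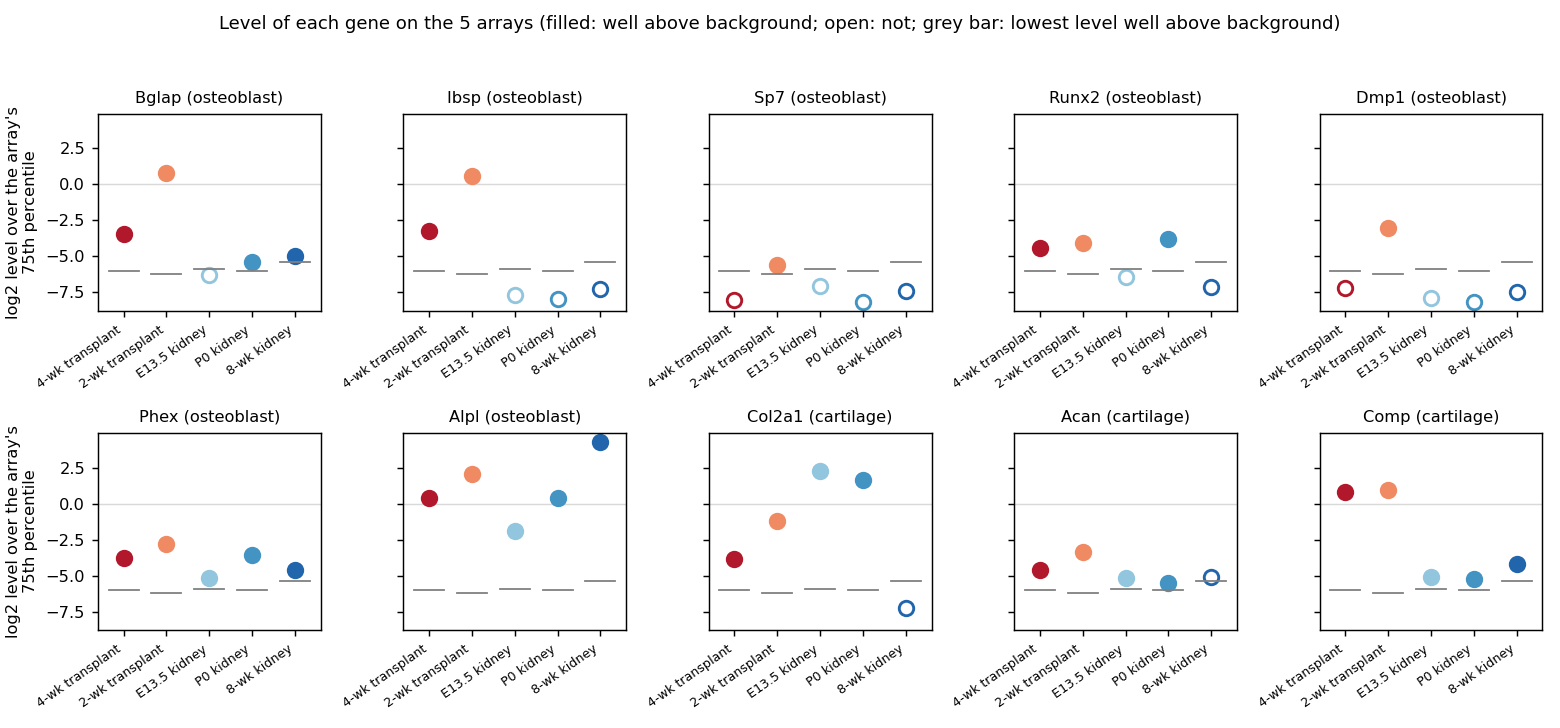
Level of the 10 genes on each array, as log2 of the signal over the array's 75th percentile (vertical axis), with the 4-week and 2-week transplant to the left and the E13.5, P0 and 8-week kidney to the right. Filled points are well above background, open points are not, and grey bars mark the lowest measured level of each array; Bglap, Ibsp and Dmp1 peak in the 2-week transplant, Comp is high in both transplants, Alpl peaks in the 8-week kidney and Col2a1 in the E13.5 kidney.

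Runx2, the factor that starts osteoblast differentiation, had signals of 68.8 in the 4-week transplant, 100.6 in the 2-week transplant, 18.7 in the E13.5 kidney, 126.6 in the P0 kidney and 8.3 in the 8-week kidney. The 2 transplants and the P0 kidney were measured and lay close together, and the other 2 kidneys were not well above background. Against the P0 kidney the log2 differences were -0.69 at 4 weeks and -0.33 at 2 weeks. Against the E13.5 kidney the transplants were at least 2.724-fold (4 weeks) and 3.493-fold (2 weeks) higher, and the P0 kidney was at least 4.38-fold higher, a call that was lost after quantile normalization (log2 difference 1.97) in the authors' deposited table (1.83), with the mean over its 3 probes (0.31) and with a background correction from the negative control spots (1.16). The order of the 2-week transplant and the P0 kidney depended on how the probes were combined. With the mean over the log2 levels of its 3 probes the 2-week transplant lay 0.23 above the P0 kidney. In the authors' deposited table the P0 kidney was the higher, at 0.67 against 0.54. The second probe gave 29.0 in the 2-week transplant and 30.7 in the P0 kidney and was dim on the other arrays, and the third was dim on all 5.

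Sp7 (osterix), which acts after Runx2 and is needed for bone formation, was measured in the 2-week transplant only. Its signal was 34.5 there, with a scanner error of 6.4, against 5.7 in the 4-week transplant and 12.1, 6.0 and 6.8 in the E13.5, P0 and 8-week kidney. This is near the limit of measurement, and the bounds were at most 1.304-fold over any kidney. Without the background filter the log2 difference from the P0 kidney was 2.52, and it was 2.51 in the authors' deposited table.

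Bglap had signals of 140.8 in the 4-week transplant and 2900.8 in the 2-week transplant, against 21.0, 40.8 and 36.9 in the E13.5, P0 and 8-week kidney. Both transplants stood above all 3 kidneys, of which the E13.5 kidney was not well above background. The 2-week transplant was 71.35-fold over the P0 kidney, 53.69-fold over the 8-week kidney and, as a bound, at least 100.8-fold over the E13.5 kidney. For the 4-week transplant these folds were 3.947, 2.97 and at least 5.573. With a background correction taken from the negative control spots, the log2 difference from the E13.5 kidney was 5.13 at 2 weeks, against 6.65, and 1.42 at 4 weeks, which is under 4-fold. The second Bglap probe was dim on all 5 arrays, at 5.6 to 16.3, and with the mean over both probes these log2 differences were 2.92 and 0.15. A normexp correction by its own fit, which gave the E13.5 array alone a negative background mean (-992), brought the 2-week log2 differences from that kidney to 1.91 for Bglap, 1.54 for Ibsp and 1.83 for Comp, all under 4-fold.

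Mice carry osteocalcin as 3 neighbouring genes on chromosome 3, in the order Bglap3, Bglap2 and Bglap, and their near-identical transcripts can share probes, so the split between them is uncertain. Bglap2 gave 1008.1 and 19351.2 in the 4-week and 2-week transplant, against 101.8, 210.7 and 6.7 in the E13.5, P0 and 8-week kidney. Bglap3 gave 1490.7 and 25550.3 in the transplants, against 169.3, 228.5 and 42.2 in the kidneys. All 3 genes were highest in the 2-week transplant, and the 4-week transplant was 18.08-fold (Bglap), 16.85-fold (Bglap2) and 15.04-fold (Bglap3) lower. A single one of the 3 Bglap3 probes went the other way, with 64.1 in the 4-week transplant and 8.3, below measurement, in the 2-week transplant.

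Ibsp had signals of 162.8 in the 4-week transplant and 2506.1 in the 2-week transplant, with scanner errors of 17.5 and 250.7. The 3 kidneys gave 7.7 (E13.5), 6.8 (P0) and 7.7 (8 weeks), none of them well above background. Ibsp was therefore measured in the transplants alone. The bounds were at least 87.05-fold, 94.62-fold and 60.92-fold over the E13.5, P0 and 8-week kidney at 2 weeks, and 6.443-fold, 7.004-fold and 4.509-fold at 4 weeks. Its second probe showed the same pattern, with 57.0 and 846.0 in the transplants and 5.4 to 5.8 in the kidneys. With the negative-control correction the 4-week differences were 1.58, 1.59 and 1.19 log2 units, all under 4-fold, and with the mean over both probes those from the E13.5 and 8-week kidney were 1.93 and 1.42. The 4-week difference from the 8-week kidney was also under 4-fold after quantile normalization, at 1.92.

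Dmp1, an acidic matrix protein of osteocytes, was measured on the 2-week array alone. Its signal was 207.7 there, against 10.1 in the 4-week transplant and 6.9, 6.0 and 6.7 in the E13.5, P0 and 8-week kidney. The 2-week transplant was at least 7.215-fold, 7.842-fold and 5.049-fold above these kidneys, and the 4-week transplant at least 7.719-fold below the 2-week one. With the negative-control correction these bounds fell under 4-fold, at 1.87, 1.87, 1.47 and -1.64 log2 units. Dmp1 and Ibsp belong to a group of acidic phosphoprotein genes on chromosome 5, in the order Dspp, Dmp1, Ibsp, Mepe and Spp1 with 1 noncoding gene among them. These neighbours were picked after values were seen. Mepe, a matrix protein of osteocytes, followed the same course with 84.7 and 624.7 in the 4-week and 2-week transplant and 93.0, 72.9 and 95.3 in the E13.5, P0 and 8-week kidney. Spp1 (osteopontin, made by bone, kidney and macrophages) did not, with 10501.7 and 15915.4 in the transplants and 313.5, 3065.0 and 7230.9 in the kidneys. Dspp, the dentin gene, was dim on all 5 arrays.

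Phex, an endopeptidase of osteoblasts and osteocytes that bears on phosphate balance, was measured on all 5 arrays. It gave 109.5 in the 4-week transplant, 240.6 in the 2-week transplant, 45.8 in the E13.5 kidney, 144.5 in the P0 kidney and 48.5 in the 8-week kidney. The 2-week transplant was highest, while the 4-week transplant lay among the kidneys. The 2-week transplant was 4.962-fold over the E13.5 kidney, 1.672-fold over the P0 kidney and 3.385-fold over the 8-week kidney. The call against the E13.5 kidney was lost after quantile normalization, at a log2 difference of 1.93, and with the negative-control correction, at 1.47. With normexp by its own fit the differences of the transplants from the E13.5 kidney turned negative, at log2 values of -1.87 at 4 weeks and -1.19 at 2 weeks.

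Alpl (tissue-nonspecific alkaline phosphatase, which clears an inhibitor of mineral growth) was highest in a kidney, not in a transplant. Its signals were 1981.2 in the 4-week transplant and 7014.2 in the 2-week transplant, against 434.0, 2221.6 and 22985.4 in the E13.5, P0 and 8-week kidney. Along the kidney ages it was higher at each step, by 4.82-fold at P0 over E13.5 and by 15.21-fold at 8 weeks over P0. The transplants were 14.91-fold (4 weeks) and 4.798-fold (2 weeks) below the 8-week kidney, and 4.916-fold and 15.28-fold above the E13.5 kidney. The 2-week call against the 8-week kidney depends on the scaling, since the log2 difference was -2.26 here, -1.75 after quantile normalization and -1.71 in the authors' deposited table. Against the P0 kidney Alpl was 1.02-fold higher at 4 weeks and 3.17-fold higher at 2 weeks. With normexp by its own fit, the 4-week and the P0 difference from the E13.5 kidney were under 4-fold, at 1.27 and 1.23 log2 units. The 8 proximal tubule genes had a median log2 difference of 8.02 between P0 and E13.5 and of 3.77 between 8 weeks and P0, and of -1.18 between the 4-week and 2-week transplant, where Alpl had -1.64. Against the P0 kidney they went apart from Alpl, with medians of -4.44 at 4 weeks and -3.40 at 2 weeks, where Alpl had 0.03 and 1.66. What share of the Alpl signal in the transplants came from each tissue was not tested.

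The cartilage genes did not share a pattern. Col2a1, the chain of type II collagen, had signals of 103.0 in the 4-week transplant and 748.1 in the 2-week transplant, against 7762.6, 5410.1 and 7.6 in the E13.5, P0 and 8-week kidney. Both transplants lay below the 2 younger kidneys and above the 8-week kidney, which was not well above background. Against the E13.5 kidney Col2a1 was 69.99-fold lower at 4 weeks and 10.98-fold lower at 2 weeks, and against the P0 kidney 45.93-fold and 7.203-fold lower. The 8-week kidney was at least 131.0-fold below the P0 kidney. The 2-week transplant was at least 18.19-fold above the 8-week kidney and the 4-week transplant at least 2.852-fold above it. Between the transplants, the 4-week one was 6.377-fold lower.

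Acan (aggrecan, the large proteoglycan of cartilage) was measured on 4 of the 5 arrays and lay near the limit of measurement in the kidneys. It gave 61.2 and 168.0 in the 4-week and 2-week transplant, against 44.6, 37.8 and 33.6 in the E13.5, P0 and 8-week kidney, the last not well above background. The 2-week transplant stood apart, 3.563-fold over the E13.5 kidney and 4.466-fold over the P0 kidney, and the 4-week transplant was 1.479-fold and 1.853-fold over them. The call against the P0 kidney was lost after quantile normalization, at a log2 difference of 1.81, and with the negative-control correction, at 1.23. With normexp by its own fit the differences from the E13.5 kidney changed sign, to log2 values of -2.49 at 4 weeks and -1.76 at 2 weeks.

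Comp, a pentameric matrix protein of cartilage that is also found in tendon, had 2678.6 and 3296.9 in the 4-week and 2-week transplant, against 47.0, 44.6 and 64.5 in the E13.5, P0 and 8-week kidney. The transplants lay close together and far from every kidney. The 4-week transplant was 61.32-fold, 68.66-fold and 32.31-fold above these kidneys and the 2-week transplant 66.24-fold, 74.17-fold and 34.91-fold. With normexp by its own fit the differences from the E13.5 kidney were under 4-fold in both transplants, at 1.63 and 1.83 log2 units. With the negative-control correction they were 4.71 at 4 weeks and 4.90 at 2 weeks, against 5.94 and 6.05. The transplants differed by 1.08-fold, while Bglap, Ibsp, Dmp1 and Col2a1 were at least 4-fold lower at 4 weeks. Of the tendon genes, Fmod (fibromodulin) was 4312.5 and 12109.2 in the transplants, against 100.6, 257.5 and 156.8 in the kidneys, and Tnmd (tenomodulin) 568.1 and 1858.0, against 16.2, 6.3 and 6.5, none of these last 3 well above background. Scx, the tendon transcription factor, was lower in the transplants, at 2102.2 and 1914.0, than in the E13.5 and P0 kidney, at 6602.7 and 6014.2. The part of tendon tissue in the Comp level was not tested.

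Counted over the 10 genes, more lay above the kidneys in the 2-week transplant than in the 4-week transplant. Against the E13.5 kidney at 4 weeks, 8 genes were compared, of which 4 lay at least 4-fold above it and 1 below it, where 12.7% and 6.87% of all genes compared were. At 2 weeks 6 were higher and 1 lower of 10, where 11.3% and 5.42% of all genes were. Their median log2 difference was 1.87 at 4 weeks and 2.58 at 2 weeks, beside -0.02 and -0.11 over all genes. Bounds enter these medians and counts. Since the genes were chosen with these values known, nothing is read from the distance to the background.

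Against the P0 kidney, 2 of 8 genes were higher and 1 lower at 4 weeks (8.66% and 4.36% of all genes), and 5 of 10 were higher and 1 lower at 2 weeks (6.85% and 3.38%). The medians were 0.46 and 1.91, beside -0.02 and -0.07. Against the 8-week kidney, 2 of 8 were higher and 1 lower at 4 weeks (11.7% and 7.8%), and 5 of 10 were higher and 1 lower at 2 weeks (11.8% and 8.67%). The gene that was lower was Col2a1 against the E13.5 and P0 kidney and Alpl against the 8-week kidney. The medians against the 8-week kidney were 1.22 and 2.05, beside 0.00 and -0.01 over all genes. The 8-week array had the lowest 75th percentile, and scaling moved its differences from the 2-week transplant by -0.55 log2 units against unscaled signals. In the authors' deposited table, which carries no such scaling but also averages probes and has no background filter, 8 genes were at least 4-fold higher in the 2-week transplant than in the 8-week kidney and 0 lower. Of 24549 genes there, 14.8% were higher and 5.2% lower.

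**Figure D2:**
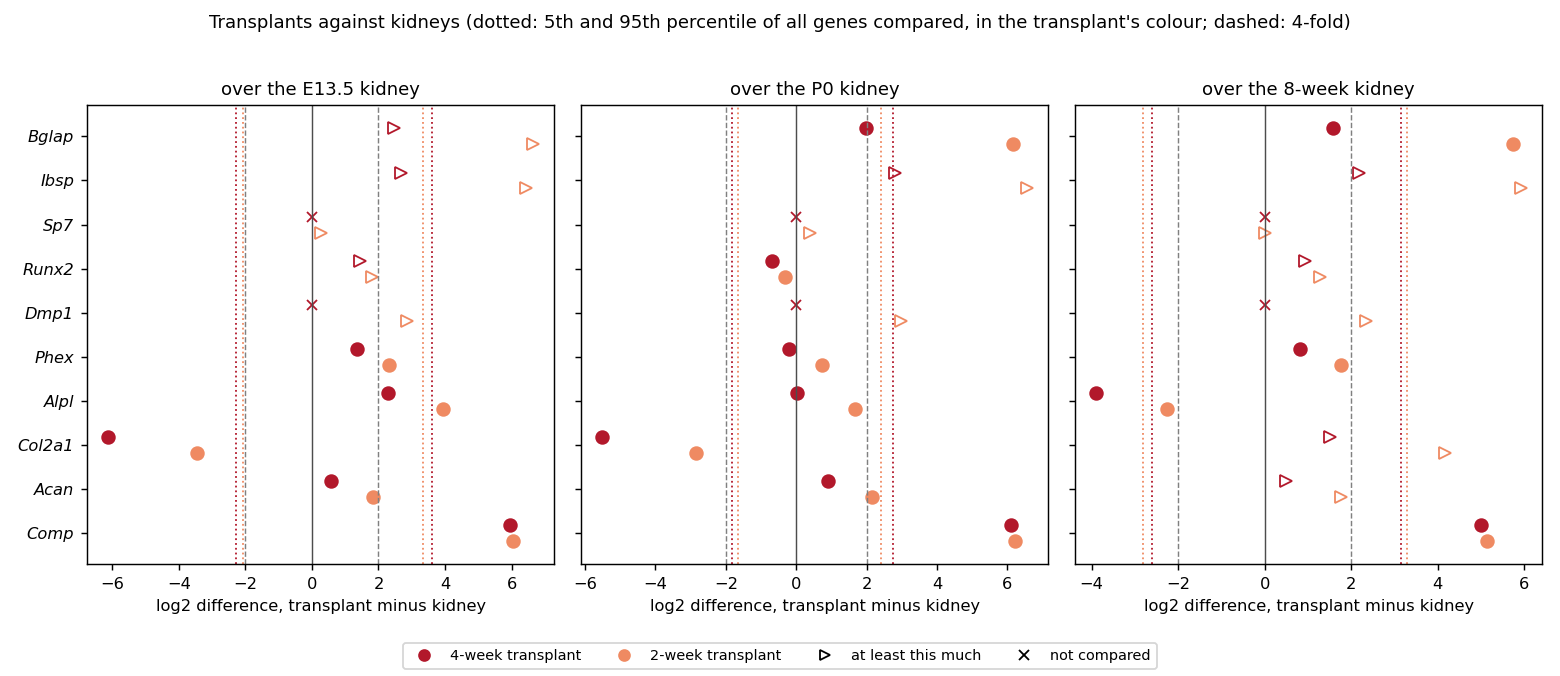
Log2 difference of the 4-week and 2-week transplant from the E13.5, P0 and 8-week kidney for the 10 genes. Open triangles are bounds, crosses mark pairs measured on neither array, dashed lines mark 4-fold and dotted lines the 5th and 95th percentile over all genes; Comp lies beyond the 95th percentile in all 6 comparisons and Ibsp at 2 weeks in all 3, while Col2a1 lies below the 5th percentile against the E13.5 and P0 kidney.

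The osteoblast and the cartilage genes were also counted apart, with no test between them. The shares of all genes given above apply to these counts too. Of the 7 osteoblast genes, 5 were at least 4-fold higher in the 2-week transplant than in the E13.5 kidney and 0 lower, and 3 of 5 compared were higher at 4 weeks. Of the 3 cartilage genes, 1 was higher (Comp) and 1 lower (Col2a1) at both times. Against the P0 kidney, 1 of 5 osteoblast genes and 1 of 3 cartilage genes were higher at 4 weeks, and 3 of 7 and 2 of 3 at 2 weeks, with 1 cartilage gene (Col2a1) lower at both times. Against the 8-week kidney, 3 osteoblast genes were higher (Bglap, Ibsp and Dmp1) and 1 lower (Alpl) at 2 weeks, and 2 cartilage genes (Col2a1 and Comp) were higher and 0 lower. At 4 weeks 1 osteoblast gene (Ibsp) was higher and 1 lower (Alpl), and 1 cartilage gene (Comp) was higher. On the 2-week array all 7 osteoblast genes were well above background, as were 5 on the 4-week array and 2, 4 and 3 on the arrays of the kidney at E13.5, P0 and 8 weeks. All 3 cartilage genes were measured on each array but the 8-week kidney, where 1 was.

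Past the threshold, the 4-week transplant was lower than the 2-week transplant in 3 osteoblast genes and 1 cartilage gene and higher in none. Of the 10 genes, 0 were at least 4-fold higher and 4 were lower (Bglap, Ibsp, Dmp1 and Col2a1), where 2.44% and 1.02% of 18493 genes compared were. The median was -1.45, beside 0.00 over all genes, and all 10 values were below 0. The osteoblast genes had a median of -1.64 and the cartilage genes of -1.27. Under the 8 alternatives tried the count of higher genes was 0 each time and that of lower genes 3 to 6, with Dmp1 no longer past 4-fold after either normexp background correction. Of all genes, 1.16% to 9.1% were higher and 0.324% to 5.68% lower under these alternatives, the largest shares being at 2-fold. The 2 arrays lay on different slides, so slide and time cannot be told apart here.

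Other osteoblast and osteocyte genes showed this for some members and not for others. Of 20 listed genes 19 were compared. At 4 weeks 0 were 4-fold above the 2-week level and 3 were 4-fold below it, Bglap2, Mepe and Ifitm5 (a membrane protein of mineralising osteoblasts, 20.4 at 4 weeks, below measurement, against 148.4 at 2 weeks). The median of the 19 was -0.67. Of all genes compared, 2.44% were at least 4-fold higher at 4 weeks than at 2 weeks and 1.02% lower. Dlx5, a homeobox factor of osteoblasts, was measured in the 2-week transplant alone, with 46.1. This is near the limit of measurement, and the bounds were at most 1.74-fold over any other array. The type I collagen chains Col1a1 and Col1a2, which fibroblasts also make, were within 2-fold, at log2 differences of -0.43 and -0.74. Sost, the osteocyte inhibitor of bone formation, was not well above background in either transplant and was measured in the P0 kidney alone, at 56.5.

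Among 22 other cartilage genes, 20 were compared and 3 were at least 4-fold lower at 4 weeks than at 2 weeks. These were Scrg1, at 104.7 against 1560.4, Hapln1 (the link protein of aggrecan), at 108.8 against 721.9, and Col9a2, a type IX collagen chain, at 253.5 against 1618.1. Col9a3 went the other way, at 292.6 against 52.1. The median of the 20 genes compared was -1.15. Of all genes compared, 1.02% were at least 4-fold lower at 4 weeks than at 2 weeks and 2.44% higher. Col10a1, the collagen of hypertrophic cartilage, was measured in the transplants alone, at 38.9 and 151.2. The 4-week signal is near the limit of measurement, with bounds of at most 1.673-fold over any kidney. Col9a1 resembled Col2a1, with 15.3 (below measurement) and 75.1 in the transplants, against 1524.4, 701.4 and 10.1 (below measurement) in the E13.5, P0 and 8-week kidney. Sox9, the transcription factor of cartilage, which the developing kidney also uses, gave 388.8 and 528.4 in the transplants, against 1090.6 and 462.0 in the E13.5 and P0 kidney, and was dim in the 8-week kidney. Matn1 and Matn3, matrix proteins of cartilage, were dim on all 5 arrays. Matn4, of the same family, was measured on all 5. It gave 905.9 and 3486.9 in the 4-week and 2-week transplant, against 194.4, 65.5 and 124.5 in the E13.5, P0 and 8-week kidney. Epyc and Prg4 (lubricin, of joint surfaces) were higher in both transplants than in the E13.5, P0 and 8-week kidney. Epyc gave 1519.4 and 4307.2, against 73.8, 5.7 and 6.2, the last 2 not well above background. Prg4 gave 369.3 and 361.8, against 6.2, 9.8 and 6.4, none of these kidney values well above background.

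Osteoclasts, which resorb bone, belong to the macrophage lineage. Of 11 osteoclast genes, 5 were at least 4-fold higher than in the E13.5 kidney in each transplant, where 12.7% (4 weeks) and 11.3% (2 weeks) of all genes were. Over the P0 kidney 2 and 4 were higher at 4 and 2 weeks (8.66% and 6.85% of all genes), and over the 8-week kidney 3 and 4 (11.7% and 11.8%). Of the 11, 0 were 4-fold lower than a kidney in either transplant, where 3.38% to 8.67% of all genes compared were. Between the transplants 0 differed 4-fold, where 2.44% of all genes compared were higher at 4 weeks and 1.02% lower. Ctsk (cathepsin K) gave 6052.5 and 22994.6 in the 4-week and 2-week transplant, against 1275.8, 1945.3 and 604.9 in the E13.5, P0 and 8-week kidney. Dcstamp, which acts in osteoclast fusion, gave 425.7 and 859.4, against 52.9, 19.4 and 11.6, the last 2 not well above background. Other members differed from these. Acp5 (tartrate-resistant acid phosphatase) was about as high in the 8-week kidney, with 74435.0 and 72240.2 in the transplants and 3834.0, 6662.6 and 66450.1 in the kidneys. Calcr, the calcitonin receptor, was 2.908-fold (4 weeks) and 2.254-fold (2 weeks) below the E13.5 kidney, and Oscar and Ocstamp stayed within 2-fold of every kidney in both transplants. The macrophage genes stood beside them, with summed signals of 41.6 and 60.5 in the transplants and 3.53, 6.37 and 15.2 in the kidneys.

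Of 12 regulators of mineralization (11 compared at 4 weeks), 5 were at least 4-fold higher than in the E13.5 kidney in each transplant and 1 (Dkk1) was lower. Of all genes compared, 12.7% (4 weeks) and 11.3% (2 weeks) were higher, and 6.87% and 5.42% lower. Over the P0 kidney 2 of 11 (4 weeks) and 4 of 12 (2 weeks) were higher, beside 8.66% and 6.85% of all genes. Dkk1 was lower there at both times, beside 4.36% and 3.38% of all genes. Over the 8-week kidney 5 of 10 and 5 of 12 were higher, beside 11.7% and 11.8% of all genes. In that comparison 0 were lower, beside 7.8% and 8.67% of all genes. Mgp (matrix Gla protein, an inhibitor of calcification) gave 194233.0 and 230038.1 in the 4-week and 2-week transplant, against 4629.7, 19275.1 and 7280.6 in the E13.5, P0 and 8-week kidney. Tnfsf11 (RANKL, the osteoclast signal) was measured in the 2-week transplant alone, at 36.8. This is near the limit of measurement, and the bounds were at most 1.39-fold over any other array. Of the 12, 0 moved 4-fold between the transplants. Of all genes compared, 2.44% were at least 4-fold higher at 4 weeks than at 2 weeks and 1.02% lower. These shares apply to the next list too. Of 12 BMP and hedgehog genes, a list of ligands, antagonists such as Nog, the hedgehog receptor Ptch1 and the hedgehog target Gli1, 1 was at least 4-fold higher at 4 weeks than at 2 weeks, namely Shh, at 142.5 against 13.7 (below measurement), and 0 were lower. Bmp2 gave 874.2 and 443.9 in the transplants, against 1208.3, 1102.6 and 111.9 in the kidneys.

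**Figure D3:**
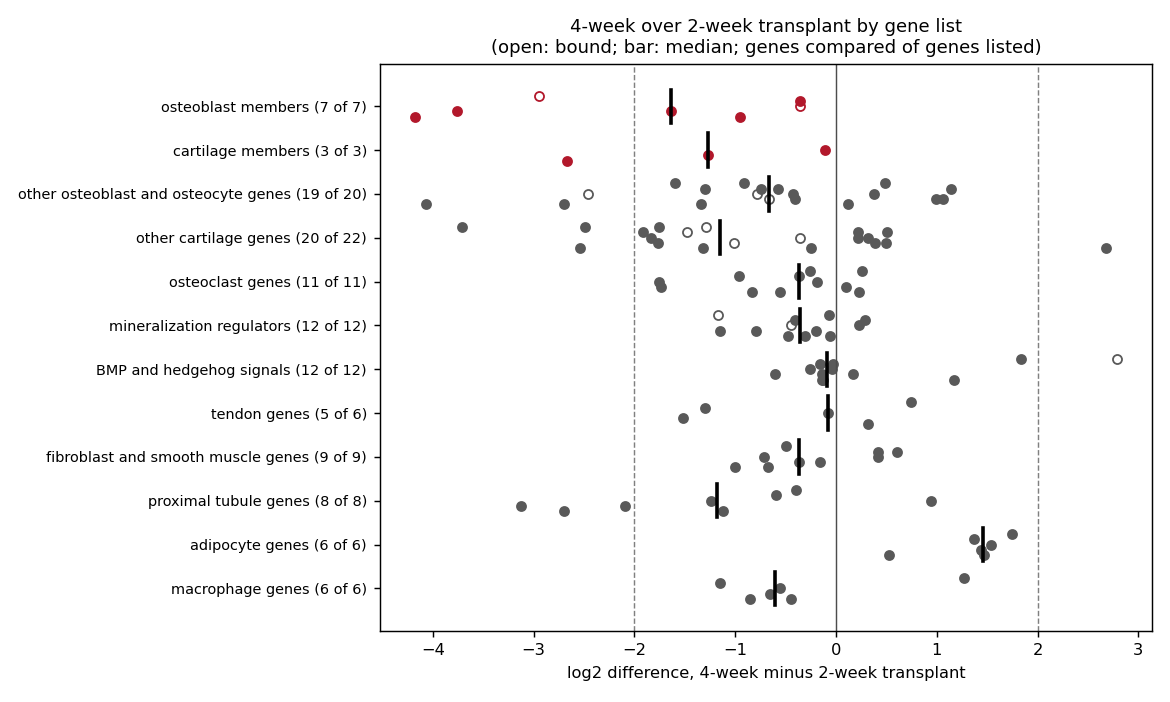
Log2 difference of the 4-week over the 2-week transplant for the genes of each list (points, open where a bound) with the list's median (bar); the numbers after a name are genes compared of genes listed, and dashed lines mark 4-fold. Bglap lies furthest to the left, at -4.18, and the proximal tubule genes reach -3.13 (Slc5a2), while the 6 adipocyte genes all lie to the right, with a median of 1.45.

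Along the kidney ages, P0 over E13.5 gave 2 genes at least 4-fold higher (Runx2 and Alpl) and 0 lower of 7 compared, where 6.24% and 1.83% of all genes were. For the 8-week over the P0 kidney, 1 was higher (Alpl) and 1 lower (Col2a1) of 7, where 8.93% and 9.35% of all genes were. Ibsp, Sp7 and Dmp1 were measured in no kidney. Comp and Acan stayed within 2.125-fold between neighbouring ages, except with normexp by its own fit, where they were lower at P0 than at E13.5 (log2 differences of -2.86 and -2.84). Against unscaled signals the scaling moved the 8-week over P0 differences by 0.56.

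The authors' deposited table holds the log2 of each gene's mean signal over its probes, centred on its median over the 5 arrays, and each of the 10 genes has 1 row. Bglap stood at 1.64 and 5.96 in the 4-week and 2-week transplant in that deposited table of the authors, against -0.75, 0.00 and -0.10 in the E13.5, P0 and 8-week kidney. Comp stood at 5.38 and 5.68, against -0.46, -0.53 and 0.00, in the authors' deposited table. Col2a1 stood at -2.86 and 0.00, against 3.38, 2.85 and -6.63, in the authors' deposited table. The 2-week transplant was the highest of the 5 arrays for Bglap, Ibsp, Sp7, Dmp1, Phex, Acan and Comp there, the 8-week kidney for Alpl, the E13.5 kidney for Col2a1 and the P0 kidney for Runx2, the same order of the top array as in the scaled values.

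The genes whose pattern lay nearest to each were named by the root mean square difference of log2 levels, centred over the 5 arrays, among 15115 genes measured on at least 3 arrays. For Col2a1 they were Igf2os (0.466), Mest (0.529) and Capn6 (0.595). Mest had levels of 0.55 and 1.84 in the 4-week and 2-week transplant and 6.28, 5.44 and -4.16 in the E13.5, P0 and 8-week kidney, lowest at 8 weeks as Col2a1 was. For Comp they were Clec10a (0.377), Acyp2 (0.421) and Vtn (0.426), and for Alpl Slc16a9 (0.222), Lrtm2 (0.342) and Abhd14b (0.399). The nearest to Acan was Wnt16 (0.104), to Phex Gpr4 (0.133) and to Runx2 Synpo2 (0.197). For Bglap no gene came close, the nearest being Zic4 at 0.877. Ibsp, Sp7 and Dmp1 were measured on too few arrays to be compared. Levels not well above background entered these differences as they stood. Runx2 was measured on 3 of the 5 arrays, and Bglap, Col2a1 and Acan on 4. With 5 points a small difference is a likeness of pattern on these arrays alone.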

How the data were processed

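Total RNA was labelled with Cy3 and hybridised to Agilent arrays, per the labels' protocols. The deposited scanner files hold each spot's intensity, already background-subtracted, with flags per spot for background, for saturated spots and for outlier spots, per the file headers. The submitters' processing notes name Agilent Feature Extraction 10.7.3.1. Each array holds 44397 spots, 43020 of them no controls. The authors' deposited gene table holds log2 values for 30224 rows. Of these, 99.6% lay within 0.01 of the log2 of a gene's mean signal over its probes, centred per row, when no percentile shift was made, and 18.2% when one was. The base 2 follows from this match and is stated nowhere.

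From the intensities, log2 minus the log2 75th percentile was computed. Outlier spots of any array (447) were dropped, and 0 spots were saturated. Repeated spots were averaged, and a gene took its brightest probe by mean level. Gene identifiers named 31781 of 39414 probes, and 5588 have no name here. Genes named were the 10 members, the context lists, and the nearest genes by the rule given above. The members and lists were chosen with earlier results of these data known. The steps were tested on simulated data. With 1 array a group no test was run and slide could not be fitted. Alternatives were normexp background correction (offset 50) with limma 3.58.1 in R 4.3.3, by its own fit or from the 153 negative control spots, quantile normalization, the values of the authors' table, a mean over probes, 2 other background filters and a 2-fold threshold. Python 3.11.15 did the rest.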

Additional observations from a re-analysis of the deposited data

How the results depend on the processing

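With 1 array in each group, every value describes single arrays, with no p-value and no spread between animals. No paired analysis was possible because each group has 1 array. The precision is limited by that number and, for Sp7, Acan, Dmp1 and Runx2, by signals close to background. The kidney signals of Bglap and Comp, at most 40.8 and 64.5, were also low. The lowest measured signals on the kidney arrays were 26.6 to 28.1. Of 78 differences of the members, a difference past 4-fold in one of the settings changed sign for 2, both with normexp by its own fit against the E13.5 kidney, whose fitted background mean was -992. These were Phex in the 2-week transplant (log2 difference -1.19) and Acan in the 4-week transplant (-2.49). Phex in the 4-week transplant (-1.87) and Acan in the 2-week transplant (-1.76) changed sign there too, with values under 4-fold in both settings. The cause of these and of other changes was not tested.

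Counts of members that moved by over 1.5 times were as follows, beside the counts given above. Each is followed by the shares of all genes under the same setting, in the same order. With normexp by its own fit, the numbers higher were 1 (2-week transplant over E13.5), 0 (4-week transplant over E13.5), 3 (2-week transplant over P0), 1 (4-week transplant over P0), 1 (4-week transplant over the 8-week kidney) and 0 (P0 over E13.5), and the numbers lower were 2 (4-week transplant over E13.5) and 2 (P0 over E13.5). Of all genes, 3.32%, 4.08%, 4.12%, 5.42%, 6.75% and 1.73% were higher, and 18.1% and 18.3% lower. With normexp from the negative controls, the numbers higher were 2, 3, 1, 1 and 1 for the 4-week transplant over E13.5, the 2-week and the 4-week transplant over P0, the 4-week transplant over the 8-week kidney and P0 over E13.5. The shares of all genes were 9.53%, 4.5%, 5.99%, 7.71% and 4.34%. After quantile normalization, 0 were lower in the 2-week transplant than in the 8-week kidney, 1 was higher in the 4-week transplant than in the 8-week kidney and 1 at P0 over E13.5. For all genes these shares were 8.93%, 10.8% and 5.88%. In the authors' deposited table, 8 were higher and 0 lower in the 2-week transplant than in the 8-week kidney, and 1 was higher at P0 over E13.5. The shares of all genes there were 14.8%, 5.2% and 5.79%. With the mean over probes, 2 were higher in the 4-week transplant over E13.5, 1 in the 4-week transplant over the 8-week kidney and 1 at P0 over E13.5 (11.9%, 10.4% and 5.71% of all genes). Without a background filter, 4 were higher in the 4-week transplant than in the 8-week kidney and 2 lower at 8 weeks than at P0 (11.4% and 8.52% of all genes). With both arrays required to be well above background, which leaves fewer genes, the numbers higher were 3 and 2 (2-week and 4-week transplant over E13.5), 3 and 1 (over P0), 2 and 1 (over the 8-week kidney) and 1 (P0 over E13.5), and 0 were lower at 8 weeks than at P0. Among all genes 8.73%, 9.88%, 5.31%, 6.84%, 9.21%, 8.89% and 4.65% were higher, and 7.4% lower. At 2-fold, 8 and 4 were higher in the 2-week and 4-week transplant than in the 8-week kidney, and 2 were higher and 3 lower at 8 weeks than at P0. The shares of all genes at 2-fold were 21.7%, 22.3%, 23.6% and 21%. For the 4-week over the 2-week transplant, 0 were higher under each of the 8 alternatives and 3 (both normexp settings, both arrays required) to 6 (2-fold) were lower. Under these 8, 1.16% (normexp by its own fit) to 9.1% (2-fold) of all genes were higher. The shares lower were 0.324% to 5.68%, for the same 2 settings.

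Of the 18 counts over all genes, 15 moved by over 1.5 times with normexp by its own fit, 7 with the negative controls, 4 in the authors' table, 3 without a filter, 5 with both arrays required and 0 with quantile normalization or the mean over probes. In the authors' table, 587 of 24549 genes were higher and 393 lower at 4 weeks than at 2 weeks, against 451 and 189 of 18493 in the scaled values. The 2-week and 4-week transplant over the 8-week kidney had 3628 and 1276, and 3387 and 1291, against 2165 and 1589, and 2150 and 1428. The 8-week over the P0 kidney had 1189 and 2994, against 1577 and 1651. There the median of all genes for the 2-week transplant over the 8-week kidney was 0.20, against -0.01. With normexp by its own fit, the 2-week transplant, the 4-week transplant and the P0 kidney over E13.5 had 606 and 3305, 748 and 3312, and 304 and 3207, against 2070 and 989, 2335 and 1259, and 1096 and 322.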

Other observations

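Some listed genes known from bone were bright on every array and did not follow Bglap. Fgf23, the phosphate hormone of osteocytes, gave 14027.5 in the 4-week transplant and 8059.0 in the 2-week transplant, against 7233.3, 5730.4 and 3197.6 in the E13.5, P0 and 8-week kidney. Pth1r, the parathyroid hormone receptor of bone and proximal tubule, gave 4946.3 and 10565.5 in the transplants, against 4471.8, 13888.0 and 60922.2 in the kidneys, with the 8-week kidney highest as for Alpl. Dlx3, a homeobox factor, gave 7723.6 and 3983.2, against 2045.8, 2062.8 and 5653.9.

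Omd (osteomodulin, a small proteoglycan of bone) differed by 1.491-fold between the transplants, with 1192.0 and 2024.8 in the 4-week and 2-week transplant, against 15.2 (not well above background), 111.8 and 183.3 in the E13.5, P0 and 8-week kidney. Sfrp4, a secreted Wnt antagonist, gave 8501.7 and 12002.8, against 483.9, 85.4 and 6.4 (not well above background). Gdf5, a signal of joint formation, was 3.561-fold higher at 4 weeks than at 2 weeks, with 1917.5 and 613.6, against 556.8, 205.9 and 26.8 (not well above background) in the kidneys.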
